A study of Mus musculus with 88 samples.

Results

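The values described here are departures from additivity of lipopolysaccharide (LPS) and isoproterenol (ISO) in the mouse macrophage-like line RAW 264.7. For each gene, set number and time, the log2 ratio to medium of cells given LPS alone and the ratio of cells given ISO alone were subtracted from the ratio of cells given both. A departure of 0 means that the fold of the combination was the product of the 2 single folds. A departure below 0 means that it was lower than that product, and one above 0 that it was higher. The same number is also the difference between the effect of ISO in cells that received LPS and its effect in cells that did not. The calculation used 54 of the 88 arrays, in 27 of the 44 dye-swap pairs, and gave 9 departures per gene (sets 1 to 3 at 1, 2 and 4 h) for 10518 genes.

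Each array set RNA of treated cells against RNA of time-matched cells left in medium, and the 2 arrays of a dye-swap pair were averaged. Treated cells received 100 ng/ml LPS, 50 nM ISO or both for 1, 2 or 4 h. For LPS alone, lipid binding protein at 100 pM appears in the labels too, and it is not named for LPS with ISO. If the combination lacked that protein, its absence enters every departure given here. An effect of that absence then cannot be told apart from an effect of ISO added to LPS. Nor can it be told apart from a departure from the product of the single folds. Cells given prostaglandin E2 (PGE2, 10 µM), alone or with LPS, were used for a single comparison further down. The labels do not say that sets were separate cultures, so the spread between sets that enters the p-values may be only technical. For departures taken over all times together, the p-values and SDs also include the differences between 1, 2 and 4 h. Each set at each time was counted there as a separate value. The cells are a single established line, and since the files hold ratios and no levels, their macrophage markers could not be checked.

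LPS is sensed by Toll-like receptor 4, which activates the transcription factor NF-kB and MAP kinases and induces cytokines together with inhibitors of the same pathway. ISO is an agonist of beta-adrenergic receptors, which raise cyclic AMP (cAMP) and activate protein kinase A and the transcription factor CREB. In macrophages, cAMP is known to restrain several inflammatory cytokines and to raise others, such as interleukin 10. Many early response genes can be induced through either pathway, which makes a gene-by-gene comparison of the combination with the single ligands informative.

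The sources do not state the direction of the deposited ratios. They were read as Cy5 over Cy3, turned to treated over medium, and this direction is called likely: on each of the 18 arrays of LPS alone, the median of 18 measured NF-kB genes exceeded 0 (0.521 to 1.91). Turned the other way, every departure of log2 ratios below would change its sign and keep its size and its p. This does not hold for the values from linear folds. The 2 arrays of a pair correlated across probes with r of 0.185 to 0.766 for LPS and 0.258 to 0.84 for LPS with ISO. For ISO alone r was −0.213 to 0.309 and lay below 0 in 4 of 9 pairs, so the ISO values are the least repeatable of the 3. On the arrays of these 3 treatments, between 10.95 and 39.85% of probes were listed at exactly 0 (median 28.3%). The meaning of this value is unstated, and it draws the mean of a pair toward 0. A departure subtracts such means and can be moved either way by a 0. No intensities were used here, so the signal behind a ratio is unknown, and the number of arrays limits the precision (median standard error of a mean departure 0.06).

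Over the 9 departures, 60 genes lay below 0 and 30 above 0 at an adjusted p under 0.05, here the threshold for a call (limma, Benjamini-Hochberg over all genes). These were 0.57% and 0.285% of the genes tested, together 0.856%. The lowest were Ier3 (−0.997 ± 0.46, SD, n = 9), an NF-kB feedback and early response gene, Phlda1 (−0.94 ± 0.60), an immediate early gene, and Tgm2 (−0.92 ± 0.38), a cAMP target. The means of these 3 genes were above medium with each ligand alone. For these 3 genes the combination reached 0.501, 0.522 and 0.528 of the product of the single folds. The highest were Prkg2 (0.88 ± 0.53), Olfr933 (0.67 ± 0.25), Usp2 (0.63 ± 0.35) and the cytokine Il10 (0.62 ± 0.39), at 1.84, 1.59, 1.55 and 1.54 times the product. Most called departures were smaller: 19 of 60 below 0 and 9 of 30 above 0 reached 0.5 in size. An unadjusted p under 0.05 was found for 1431 genes (13.6%), and the median departure of all genes was 0, with 5233 genes below and 5224 above.

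The number of calls depended on the set numbers and on each set. When set numbers were ignored and the 27 pair means were fitted with a mean per group, 9 genes were called, 8 of them among the 90. Ier3, Tgm2, Clec4e, Cebpb, C5ar1, Gask1b and Igf1 were among these. Without set 1 or without set 2 no gene was called, and without set 3 there was 1. Without the 2 h samples 0 genes were called, against 27 without 1 h and 24 without 4 h. Of the 30 genes shown in the plot of single departures, none changed its sign under any of these fits. That was largely fixed in advance, since these genes were picked for the same sign in at least 8 of 9 values. The fit without set numbers leaves the mean itself unchanged.

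**Figure D1:**
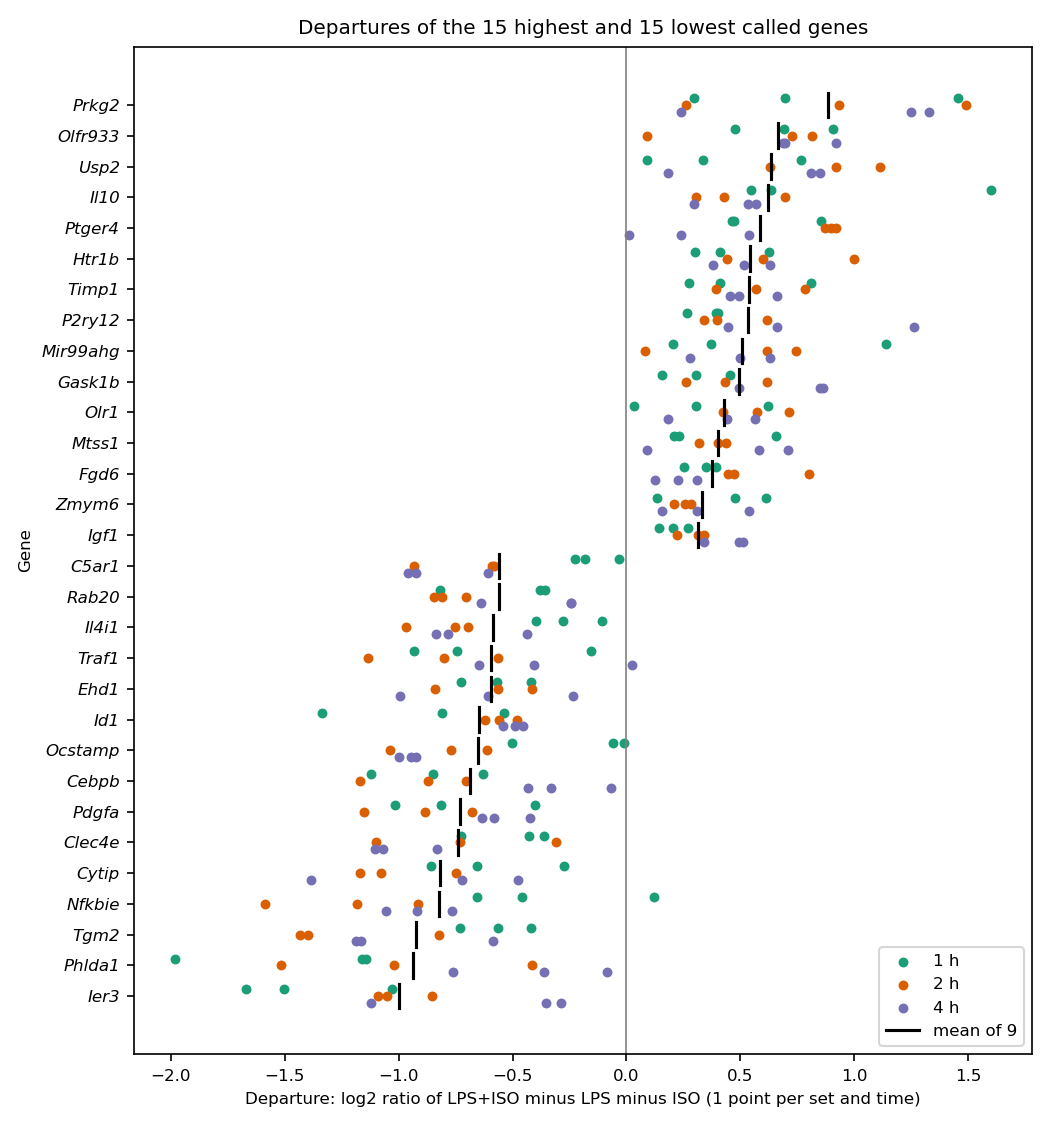
Departure of LPS with ISO from the sum of the single log2 ratios for the 15 highest and 15 lowest called genes; each point is 1 set at 1 time (green 1 h, orange 2 h, purple 4 h) and the black bar is the mean of 9. All 9 points lie on the same side of 0 for every gene except Nfkbie (0.12 in set 1 at 1 h) and Traf1 (0.03 in set 1 at 4 h).

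What the single treatments did to these genes enters the departure and is given as a description. Both single values are subtracted, so picking genes by their departure favours single values of the opposite sign. The counts below were not taken over all genes and so show no trait of the called genes. Of the 60 genes called below 0, 52 had a mean above medium with each ligand alone, and none had a mean below medium with each. In 45 of the 60 the mean of the combination did not exceed the larger of the single means. Of the 30 genes called above 0, 21 had means below medium with each ligand alone, 3 had both above, and 6 were above with LPS and below with ISO. Read as an effect of ISO, the change was smaller in cells with LPS for 50 of the 60 and 21 of the 30, and its mean had the opposite sign for 33 and 17. Linear folds were also compared with their sum in place of their product. The sign of the mean over the 9 values then differed in only 1 of the 90 genes. This was Odc1, which makes ornithine decarboxylase, at −0.42 on the log2 scale and 0.296 in linear folds. Single linear values were less even in some genes: Traf1 was above 0 in 5 of 9 and Ier3 in 2 of 9. Pdgfa and Cytip were above 0 in 0 of 9.

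**Figure D2:**
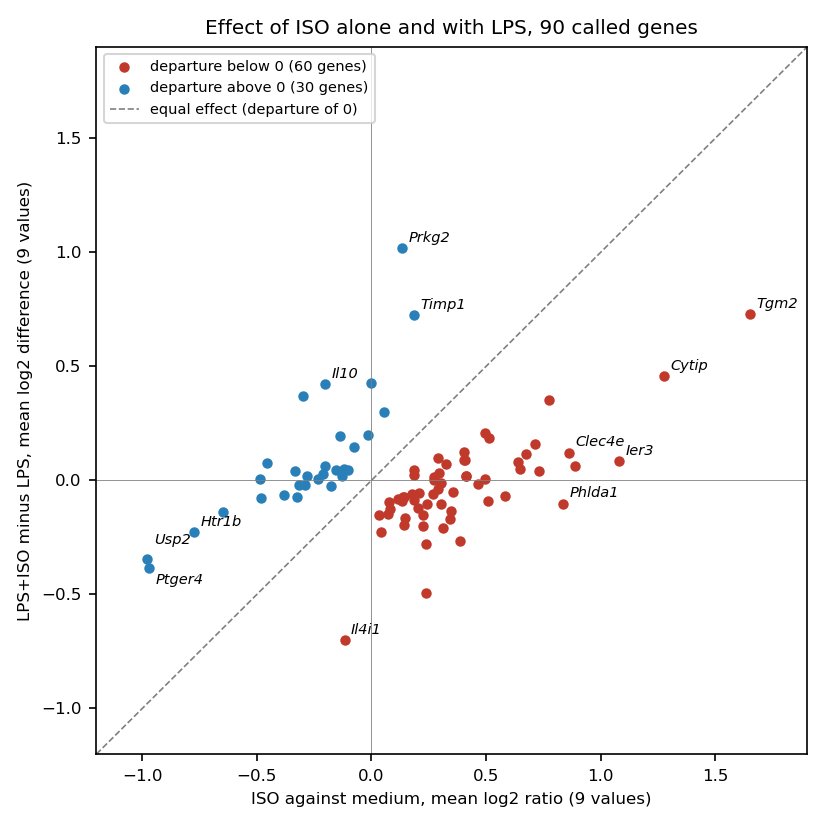
Mean log2 ratio of ISO to medium (horizontal) against the mean log2 difference between LPS with ISO and LPS alone (vertical) for the 90 called genes, 9 values each; points on the dashed line have a departure of 0. Genes called below 0 (red) lie below the line, mostly to the right of 0 with little vertical spread, while those called above 0 (blue) lie above it, mostly to the left.

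Among NF-kB subunits and feedback regulators, 4 of 18 measured genes were called below 0 and none above 0. Of all genes tested, 0.57% were called below 0 and 0.285% above 0, shares that stand beside every list count that follows. The lists were chosen with earlier results of these data known, and no list was tested as a set. All 18 means lay below 0, with a median of −0.20 beside 0 for all genes tested. The 4 were Ier3, Nfkbie, Traf1 and Nfkb2. Ier3 encodes an early response protein induced by NF-kB that is known to affect cell survival. At 1 h its log2 ratio to medium was 3.85, 2.72 and 3.07 in sets 1 to 3 with LPS, 1.83, 1.37 and 1.52 with ISO, and 4.01, 3.06 and 3.08 with both. ISO alone thus held Ier3 at 2.98 times medium, while cells with LPS and ISO were at 10.4 times medium against 9.26 times with LPS alone. The Ier3 departures were −1.67, −1.03 and −1.50 at 1 h, −0.85, −1.05 and −1.09 at 2 h, and −1.12, −0.29 and −0.35 at 4 h (adjusted p = 0.0147 by limma over the 9). All 9 were below 0, and at 4 h, when ISO alone was at 0.41 ± 0.28, sets 2 and 3 were nearest to 0. The value of ISO alone is subtracted in the departure, so the pair is linked by arithmetic, here and for the genes below.

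Nfkbie encodes IkB epsilon, an inhibitor that holds NF-kB in the cytoplasm. With LPS it was at 2.15, 1.68 and 2.48 at 2 h, with ISO at 0.96, 1.23 and 1.33, and with both at 2.19, 1.72 and 2.21. The combination overlapped LPS alone and lay above ISO alone in every set. Its departures were 0.12, −0.46 and −0.66 at 1 h, −0.92, −1.18 and −1.59 at 2 h, and −1.06, −0.92 and −0.76 at 4 h (mean −0.82, adjusted p = 0.0369 by limma). Set 1 at 1 h was the exception in sign, and there ISO alone was at 0.08. Traf1, an adaptor of TNF receptor signalling, averaged −0.60 ± 0.37 (adjusted p = 0.046). It was at 2.84 with LPS, 0.65 with ISO and 2.89 with both over the 9 values. Nfkb2, the p100 subunit and precursor of p52, had a smaller and steadier departure of −0.39 ± 0.14, below 0 in 9 of 9 (adjusted p = 0.0121).

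The 250 bases before the annotated start are printed for the 2 lowest and the 2 highest called genes that were matched in the promoter table: Ier3 and Nfkbie, and Olfr933 and Usp2. Phlda1, Tgm2 and Prkg2, which rank among them, were not matched. The sequences are RefSeq's on GRCm38.p6, all on the plus strand: chr17:35821463-35821712 for Ier3, chr17:45555450-45555699 for Nfkbie, chr9:38975428-38975677 for Olfr933 and chr9:44084670-44084919 for Usp2. Capitals mark matches to a kB motif or, in Nfkbie, first to the AP-1 motif TGANTCA.
Ier3: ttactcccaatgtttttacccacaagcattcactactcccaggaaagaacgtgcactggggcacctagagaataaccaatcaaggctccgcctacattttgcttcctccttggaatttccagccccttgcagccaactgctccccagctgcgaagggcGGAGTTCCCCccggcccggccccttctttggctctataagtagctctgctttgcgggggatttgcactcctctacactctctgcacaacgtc
Nfkbie: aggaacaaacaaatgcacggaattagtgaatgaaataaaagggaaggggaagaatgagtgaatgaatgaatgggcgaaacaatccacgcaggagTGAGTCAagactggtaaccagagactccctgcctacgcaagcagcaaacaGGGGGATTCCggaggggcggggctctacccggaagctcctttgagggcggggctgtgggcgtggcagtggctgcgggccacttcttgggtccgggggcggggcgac
Olfr933: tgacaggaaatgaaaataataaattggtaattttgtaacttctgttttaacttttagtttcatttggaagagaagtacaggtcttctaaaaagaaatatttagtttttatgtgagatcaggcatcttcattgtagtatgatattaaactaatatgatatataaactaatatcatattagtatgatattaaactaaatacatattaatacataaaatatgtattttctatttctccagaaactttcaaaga
Usp2: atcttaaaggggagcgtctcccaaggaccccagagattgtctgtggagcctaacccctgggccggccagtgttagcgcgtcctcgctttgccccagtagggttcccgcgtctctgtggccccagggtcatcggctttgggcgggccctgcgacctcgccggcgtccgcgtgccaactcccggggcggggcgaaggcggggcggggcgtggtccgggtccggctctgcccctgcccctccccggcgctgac
The kB match of Ier3, GGAGTTCCCC, begins 92 bases before the start. In Nfkbie the AP-1 match TGAGTCA begins 156 bases and the kB match GGGGGATTCC 106 bases before it. The windows of Olfr933 and Usp2 held none of the 4 motifs searched. These were a kB motif, TGANTCA, the cAMP response element TGACGTCA and its core TGACG, each on both strands, with the core contained in the full element. Of the 90 called genes, 75 were in the promoter table. A kB match stood in 16.3% of 49 genes called below 0 and 7.69% of 26 called above 0, beside 7.01% of all 27025 genes in the table. These 27025 include genes that the arrays did not test, and shares over the tested genes alone were not taken. The shares for TGACG were 34.7%, 19.2% and 17.9%, and those for TGANTCA 6.12%, 11.5% and 6.87%. The full TGACGTCA was in no window of a called gene and in 1.62% of all. Matches of this kind describe letters and show no binding.

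**Figure D3:**
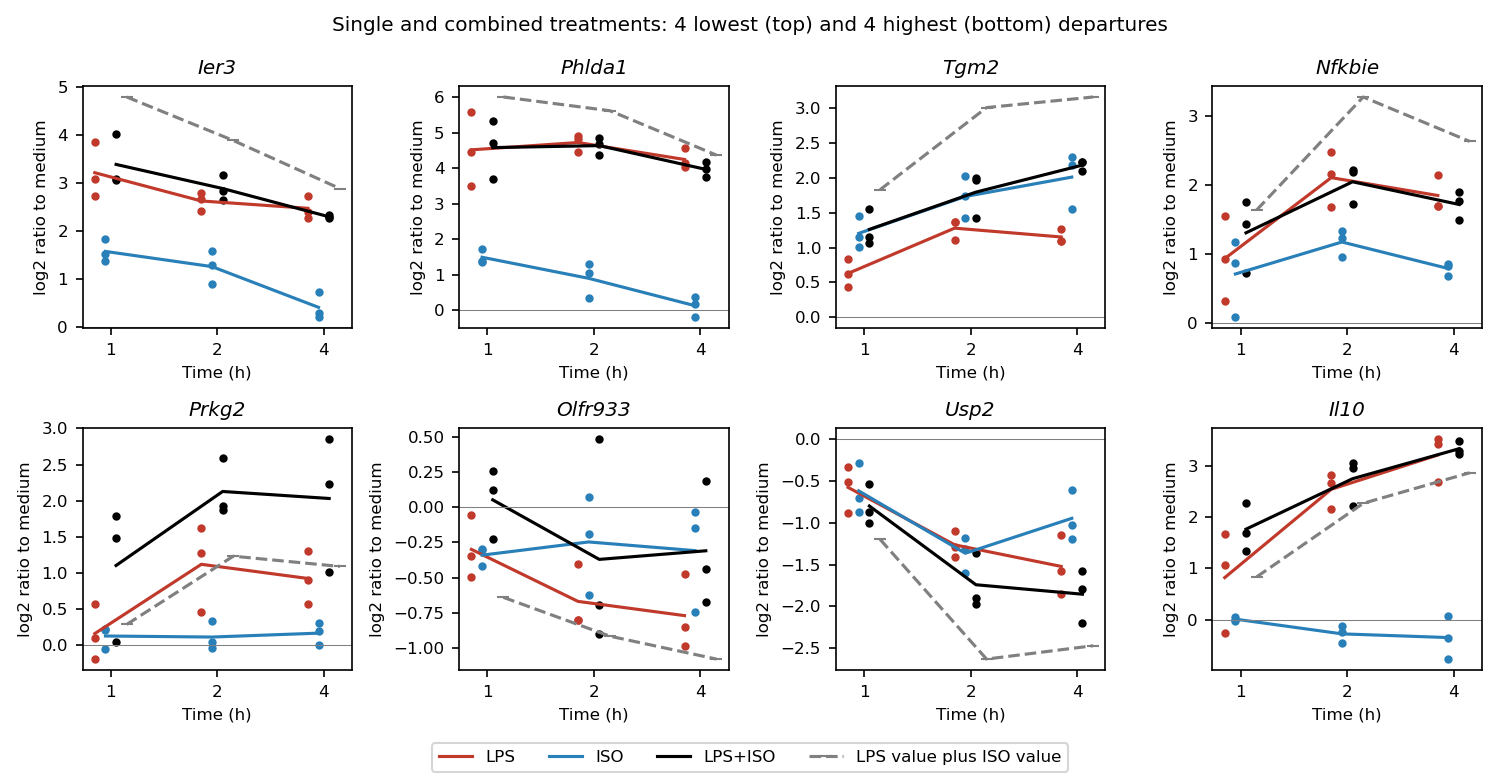
Log2 ratio to medium at 1, 2 and 4 h of LPS (red), ISO (blue) and LPS with ISO (black) for the 4 genes with the lowest and the 4 with the highest mean departure; points are sets, lines join means of 3 sets, and the grey dashes mark the sum of the LPS and ISO means. The black line runs below the dashes in the upper row (Ier3, Phlda1, Tgm2, Nfkbie) and above them in the lower row (Prkg2, Olfr933, Usp2, Il10).

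Immediate early genes, which respond within an hour to serum and many other stimuli, had 4 of 29 measured members called below 0 and none above 0, with a list median of −0.23. Besides Ier3 these were Phlda1, Id1 and Plk3. Phlda1, a pleckstrin-homology-like protein induced by stress and growth factors, was the most LPS-responsive of the named genes at 4.50 over the 9 values. At 1 h it was at 5.60, 3.50 and 4.47 with LPS, 1.73, 1.36 and 1.39 with ISO, and 5.34, 3.71 and 4.70 with both. Its departure was −1.43 ± 0.48 at 1 h, −0.98 ± 0.55 at 2 h and −0.40 ± 0.34 at 4 h (n = 3 each). ISO alone, which the departure subtracts, also came nearer to medium in time, from 1.49 at 1 h through 0.90 at 2 h to 0.12 at 4 h. The values with LPS and with the combination overlapped at each time.

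Id1, an inhibitor of basic helix-loop-helix transcription factors, differed from Phlda1 in that LPS did little to it early. At 1 h Id1 was at 0.38, −0.64 and −0.23 with LPS, 1.11, 0.89 and 0.79 with ISO, and 0.16, −0.29 and −0.25 with both. ISO alone was thus above every other value at that time, and the combination overlapped LPS alone. Its mean departure was −0.65 ± 0.28 (adjusted p = 0.0132), and its 2 probes gave −0.89 and −0.40. Plk3, a stress-responsive kinase, averaged −0.52 ± 0.32, with 8 of 9 values below 0. Btg2, an antiproliferative early gene that is induced by p53, was the only gene called at 1 h alone (0.00951% of genes, with 1291 genes at an unadjusted p under 0.05). Its 1 h log2 ratio was 4.21, 4.01 and 4.13 with LPS, 1.16, 1.81 and 1.42 with ISO, and 3.92, 3.98 and 3.93 with both. The departure of Btg2 was −1.63 ± 0.20 at 1 h (adjusted p = 0.00817), −0.70 ± 0.29 at 2 h and 0.12 ± 0.17 at 4 h. Over the 9 values it was not called (adjusted p = 0.204), nor at 1 h without set 2 (adjusted p = 0.708) or set 3 (0.316).

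The MAP kinase phosphatases and related inhibitors, which switch off ERK, p38 and JNK signalling, had no member called. All 8 measured means lay below 0, with a median of −0.12. Dusp1, the early phosphatase of p38 and JNK, was at 3.57, 3.56 and 3.86 with LPS at 1 h, 1.78, 1.73 and 1.62 with ISO, and 3.58, 4.13 and 3.80 with both. Its departure was −1.53 ± 0.33 at 1 h (adjusted p = 0.0805), −0.67 ± 0.51 at 2 h and 0.07 ± 0.10 at 4 h. Dusp2 had −1.02 ± 0.27, −0.76 ± 0.16 and 0.35 ± 0.15 at these times.

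Genes known as targets of cAMP and CREB were called in both directions: 3 of 31 measured below 0 (Tgm2, Cebpb, Cebpd) and 2 above 0 (Il10, Ptger4), with a list median of −0.10. Tgm2 encodes transglutaminase 2, a protein-crosslinking enzyme. ISO alone gave Tgm2 1.01, 1.15 and 1.46 at 1 h, 1.74, 1.42 and 2.04 at 2 h, and 1.55, 2.18 and 2.31 at 4 h. The values of the combination overlapped those of ISO alone at each time: 1.07, 1.16 and 1.56, then 1.42, 1.97 and 2.00, then 2.23, 2.10 and 2.23. LPS alone was lower than ISO alone at each time (0.63, 1.28 and 1.15 on average). Its departure of −0.92 ± 0.38 was below 0 in 9 of 9 (adjusted p = 0.013).

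Cebpb, a transcription factor of macrophage activation, was at 0.89 with LPS, 0.73 with ISO and 0.94 with both over the 9 values. The departure of Cebpb was −0.87 ± 0.25 at 1 h, −0.91 ± 0.24 at 2 h and −0.28 ± 0.19 at 4 h (over the 9, adjusted p = 0.0305). At 4 h ISO alone had come down to 0.25 ± 0.23. Its relative Cebpd averaged −0.52 (adjusted p = 0.013), with 1.69 for LPS, 0.24 for ISO and 1.41 for both. Cytip, a cytohesin-binding protein of leukocyte adhesion, was held in opposite directions by the single ligands: at 4 h it was at −1.06, −2.04 and −1.48 with LPS and at 0.94, 1.39 and 1.17 with ISO. With both it was at −1.50, −1.12 and −1.03, overlapping LPS alone and without overlap with ISO alone. Over the 9 values Cytip was on average 0.46 higher with both than with LPS alone, against 1.28 for ISO over medium. Its departure averaged −0.82 ± 0.35 (adjusted p = 0.013), and all 9 values were below 0.

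Ptger4, the Gs-coupled EP4 receptor for PGE2, was above 0 (0.59 ± 0.33, adjusted p = 0.0346). ISO alone gave −1.38, −0.81 and −1.47 at 1 h and −0.94, −1.47 and −1.38 at 2 h, while LPS alone stayed between −0.36 and −0.01 at these times. With both, Ptger4 was at −0.97, −0.50 and −0.76 and then at −0.03, −0.96 and −0.59. The 2 h departures were nearly equal, at 0.92, 0.87 and 0.90, and by 4 h they were 0.54, 0.01 and 0.24.

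Of 29 measured genes for cAMP pathway receptors and enzymes, 1 was called above 0, Ptger4, and 1 below 0, Pde8a (−0.28 ± 0.15), a cAMP phosphodiesterase. Pde4b, the phosphodiesterase known to be induced by LPS in macrophages, had the lowest mean departure of all genes tested, at −1.03, and was not called (adjusted p = 0.0649). Its values were −1.31, −0.41 and −1.85 at 1 h, −1.49, −1.49 and −1.35 at 2 h, and 0.56, −1.08 and −0.87 at 4 h. They were close together at 2 h, and set 1 at 4 h had the opposite sign.

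The regulators of G protein signalling had 0 of 10 called. Rgs1 and Rgs2, which limit signalling from G protein-coupled receptors, had mean departures of 0.68 (adjusted p = 0.0505) and 0.74 (0.0535), above 0 in 9 of 9 each. Rgs1 was at −2.19, −2.60 and −2.80 with ISO alone at 2 h and at −0.67, −2.82 and −2.37 with both. At 4 h the combination lay at 0.32, 0.25 and 1.36 for Rgs1, between LPS alone (0.78, 1.12 and 1.70) and ISO alone (−0.78, −1.10 and −1.26).

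Of 30 measured cytokines and chemokines, 1 was called above 0 and none below 0, with a list median of −0.13. This was Il10, an anti-inflammatory cytokine that also stands among the lists of cAMP targets and of alternative activation, where it was the only one of 17 called. At 1 h Il10 was at 1.67, −0.26 and 1.06 with LPS, 0.06, 0.00 and −0.02 with ISO, and 2.27, 1.34 and 1.68 with both. The combination was above LPS alone in each of the 3 sets at that time. By 4 h LPS alone had reached 2.68, 3.52 and 3.42 and the combination 3.29, 3.47 and 3.23, which overlap, while ISO alone was at 0.07, −0.34 and −0.76. Its departures were 0.55, 1.60 and 0.63 at 1 h, 0.43, 0.31 and 0.70 at 2 h, and 0.53, 0.30 and 0.57 at 4 h (adjusted p = 0.0483 over the 9). Set 2 at 1 h stood apart, and without 1 h the mean was 0.47 (adjusted p = 0.0541). The departure of Il10 was 0.47 on arrays with the treated RNA in Cy3 alone (adjusted p = 0.172 by limma) and 0.78 in Cy5 alone (0.0213).

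Il1a and Ccl3 had larger means, 0.83 and 0.81, with departures from −0.52 to 3.62 for Il1a, and were not called (adjusted p = 0.369 and 0.358). Cxcl2 had the lowest mean of the cytokines, −0.79 (adjusted p = 0.343), with values other than 0 on 27 of 54 arrays. Its 2 probes gave −1.61 and 0.04.

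Several other called genes act outside the cell or on its surface. Timp1, an inhibitor of matrix metalloproteinases, was at 1.33, 3.32 and 2.98 with LPS at 4 h, 0.18, 0.14 and 0.19 with ISO, and 2.17, 3.95 and 3.62 with both. LPS with ISO exceeded LPS alone by 0.64, 0.43 and 0.86 at 1 h, 0.73, 1.00 and 0.74 at 2 h, and 0.84, 0.64 and 0.64 at 4 h. The Timp1 departure was 0.54 ± 0.18, above 0 in 9 of 9 (adjusted p = 0.0121). On arrays with the treated RNA in Cy3 alone it was 0.19 (adjusted p = 0.332).

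Pdgfa, a chain of platelet-derived growth factor, went the other way (−0.73 ± 0.26, adjusted p = 0.0121). At 2 h it was at 1.43, 0.96 and 1.76 with LPS, 0.29, 0.24 and 0.40 with ISO, and 0.56, 0.53 and 1.28 with both. The combination was lower than LPS alone in 9 of 9 comparisons, with differences from −0.86 to −0.15, while ISO alone was at 0.24 on average. Il4i1, a secreted amino acid oxidase, was also lower with both than with LPS alone at the later times, with a difference of −0.81 ± 0.04 at 2 h and −0.96 ± 0.04 at 4 h, while ISO alone was at −0.12 on average. Its departure was −0.58 ± 0.29 (adjusted p = 0.0248), but its 2 probes gave −1.22 and 0.05. The gene average therefore rests on 1 of them. The departure of Il4i1 was −0.38 on arrays with the treated RNA in Cy3 alone (adjusted p = 0.231).

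Of 34 measured macrophage surface receptors, 3 were called below 0 (Clec4e, C5ar1, P2ry2) and 1 above 0 (Olr1), with a list median of −0.06. Clec4e, or Mincle, a receptor for mycobacterial glycolipid, was at 2.26, 2.21 and 2.22 with LPS at 1 h. With ISO it was at 0.74, 0.36 and 0.82 and with both at 2.58, 2.21 and 2.31, so that the combination overlapped LPS alone. Its departure was −0.50 ± 0.20 at 1 h and −0.71 ± 0.39 at 2 h, and at 4 h its values were −0.83, −1.07 and −1.10. ISO alone, which the departure subtracts, had similar steps, from 0.64 through 0.78 to 1.17.

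C5ar1, the receptor for complement C5a, was called over the 9 values (−0.56 ± 0.35, adjusted p = 0.048) and at 4 h (−0.83 ± 0.19, adjusted p = 0.0228). Its 2 probes gave −0.999 and −0.12. P2ry2, a nucleotide receptor, averaged −0.31. Olr1, a scavenger receptor for oxidised LDL, was above 0 (0.43 ± 0.22, adjusted p = 0.0305). At 2 h it was at 1.75, 0.79 and 1.52 with LPS, 0.29, −0.02 and 0.05 with ISO and 2.46, 1.34 and 2.28 with both. The combination exceeded LPS alone in each of the 3 sets then, by 0.55 to 0.76. The departure of Olr1 was 0.25 on arrays with the treated RNA in Cy3 alone (adjusted p = 0.142).

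Prkg2, cGMP-dependent protein kinase 2, had the highest departure of the called genes. LPS alone gave 0.10, −0.19 and 0.57 at 1 h, ISO alone 0.23, −0.06 and 0.21, and both together 1.79, 0.04 and 1.48. At 4 h these were 0.58, 1.30 and 0.90, then 0.19, 0.31 and 0.00, then 1.01, 2.85 and 2.23. The combination was above LPS alone in 9 of 9 comparisons, by 0.24 to 1.68, and the spread between sets was wide. With zeros left out as missing the mean was 0.64 (adjusted p = 0.0932), since Prkg2 had values other than 0 on 41 of 54 arrays. Neither dye orientation alone gave a call for Prkg2, at 1.12 in Cy5 (adjusted p = 0.074 by limma) and 0.65 in Cy3 (0.194). With a mean per time in the fit the adjusted p was 0.0632.

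In 21 of the 30 genes above 0 the single ligands each gave means below medium. The combination was then not as low as their sum, as a departure above 0 requires. Usp2, a ubiquitin-specific protease under circadian control, was at −1.29, −1.09 and −1.41 with LPS at 2 h, −1.31, −1.18 and −1.60 with ISO, and −1.97, −1.36 and −1.90 with both. The combination was lower than LPS alone in 9 of 9 comparisons, with differences from −0.68 to −0.11, and its departure was above 0 in 9 of 9. Htr1b, a Gi-coupled serotonin receptor, was at −0.71 with LPS, −0.77 with ISO and −0.93 with both over the 9 values (departure 0.54 ± 0.21, adjusted p = 0.0121). P2ry12, a Gi-coupled ADP receptor, was at −0.81, −0.46 and −0.73 in the same order (0.53 ± 0.30). Igf1, insulin-like growth factor 1, had departures of 0.27, 0.21 and 0.14 at 1 h, 0.31, 0.22 and 0.34 at 2 h, and 0.34, 0.51 and 0.50 at 4 h (adjusted p = 0.0145). ISO alone held Igf1 at −0.54 ± 0.11 at 4 h, LPS alone at −0.39 ± 0.06 and the combination at −0.47 ± 0.06.

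The remaining named genes were Gask1b (0.49), the long noncoding RNA host gene Mir99ahg (0.51), Mtss1 (0.40), Fgd6 (0.38) and Zmym6 (0.33) above 0. The departure of Zmym6 was 0.20 on arrays with the treated RNA in Cy5 alone (adjusted p = 0.303). Below 0 they were Ocstamp (−0.65), a protein of osteoclast fusion, Ehd1 (−0.60), which acts in endocytic recycling, and Rab20 (−0.56), a small GTPase. Olfr933, an olfactory receptor gene, was at −0.58 with LPS, −0.30 with ISO and −0.21 with both on average. Its combination values ranged from −0.90 to 0.48. Pla2g4a, the phospholipase that releases arachidonic acid, was the only one of 15 measured eicosanoid genes called, at 0.30 ± 0.17, whereas Ptgs2 (cyclooxygenase 2) ranged from −2.81 to 1.42 and was not called (adjusted p = 0.557). In Ptgs2 the combination was listed at 0.00 in set 1 at 2 h and at 4 h.

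By time, no gene was called at 2 h (0%), where 922 had an unadjusted p under 0.05 and the smallest adjusted p was 0.0532. At 4 h 16 genes were called (0.152%), 12 below and 4 above 0, with 973 at an unadjusted p under 0.05. Of the 17 genes called at a single time, 5 were also called over the 9 values. The lowest at 4 h among genes measured on at least 9 of 18 arrays of that time were Nes, Ocstamp, C5ar1, Fgr and Gpr84. Nes, the intermediate filament nestin, was at 0.58, 0.34 and 0.77 with LPS, −0.07, 0.14 and 0.14 with ISO and −0.49, −0.31 and −0.19 with both, so that the combination lay below medium and below either ligand in every set. Its 4 h departure was −0.97 ± 0.16 (adjusted p = 0.0446), beside −0.05 and −0.10 at 1 and 2 h. Fgr, a Src-family kinase of myeloid cells, departed by −0.80 ± 0.12 at 4 h and by −0.12 and −0.06 before. Gpr84, a receptor for medium-chain fatty acids, departed by −0.75 ± 0.07 at 4 h (both adjusted p = 0.0228).

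Above 0 at 4 h were Hdac9, Gask1b, U90926 and Igf1. Hdac9, a class IIa histone deacetylase, was at −1.54, −1.23 and −1.38 with LPS, −1.44, −1.15 and −1.19 with ISO and −1.65, −0.79 and −1.48 with both. The 3 treatments overlapped, and the Hdac9 departure was 1.34 ± 0.25 (adjusted p = 0.0228), against 0.33 and 0.21 at 1 and 2 h. U90926, a noncoding RNA of macrophages, was at 0.19, 0.38 and 0.05 with LPS, 0.43, −0.12 and 0.18 with ISO and 1.30, 1.16 and 0.80 with both. The combination lay above both ligands in every set, and the departure was 0.71 ± 0.16 (adjusted p = 0.0425). On arrays with the treated RNA in Cy3 alone it was 0.42 at 4 h (adjusted p = 0.699). Of the 9 genes named here for 4 h, none kept the call when any 1 set was left out. A change of the departure with time was not called for any gene by the F test (0%, 782 at an unadjusted p under 0.05, smallest adjusted p = 0.148, for Btg2), so a call at 4 h and not earlier does not show that the times differ.

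The other lists held few calls, to be set beside the 0.856% of all genes called in either direction. Interferon-stimulated genes had 1 of 35 called, the immunoproteasome subunit Psmb8 (−0.19), which was also the only one of 21 antigen presentation genes called. Glycolysis and hypoxia genes had 1 of 21, the glucose transporter Slc2a1 (−0.41 ± 0.14, below 0 in 9 of 9, adjusted p = 0.0121). In that list Hilpda and Vegfa, which respond to hypoxia, had means of −0.87 and −0.51 and were not called (adjusted p = 0.0943 and 0.0801). No call fell among TLR signalling components (21 genes, −0.30 to 0.26), G1 and S phase (26, −0.25 to 0.13), G2 and M phase (23, −0.13 to 0.15), heat shock and unfolded protein genes (22, −0.39 to 0.10) or sterol genes (15, −0.26 to 0.26). Markers of other cell types had no call among 19 (−0.11 to 0.09). Neither did 16 reference genes, of which 15 lay between −0.14 and 0.07 and Tfrc, the transferrin receptor, was at 0.68 (adjusted p = 0.0736).

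**Figure D4:**
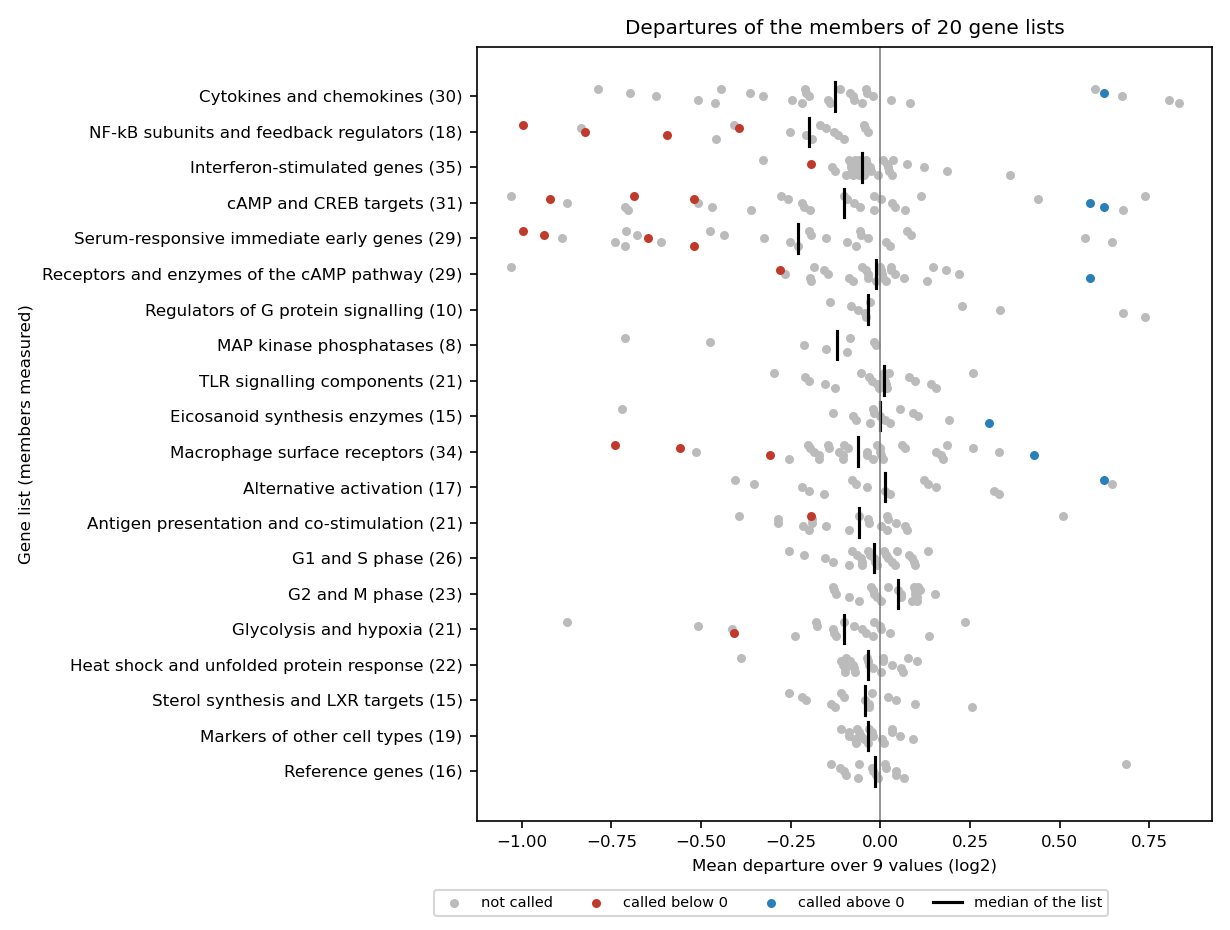
Mean departure over 9 values of each measured member of 20 gene lists (members measured in parentheses); grey points were not called, red were called below 0, blue above 0, and the black bar is the list median. Medians run from −0.23 (immediate early genes) to 0.05 (G2 and M phase), and the called members below 0 are mostly in the NF-kB, cAMP target, immediate early and receptor lists.

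Genes next to the threshold were P2ry2 (−0.31), Rnd2 (−0.22) and Mir99ahg (0.51) just inside and Tnfrsf1b (−0.55), Myc (0.57) and Fbxw4 (0.25) just outside, the last 3 at an adjusted p of 0.0501. Among the 60 called below 0 the median departure at 1, 2 and 4 h was −0.29, −0.38 and −0.33, and among the 30 above 0 it was 0.27, 0.36 and 0.30.

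PGE2 also raises cAMP in macrophages, and its departure with LPS was set beside that of ISO over 8 values, in a difference in which the shared LPS arrays cancel. No gene was called (0%, 641 at an unadjusted p under 0.05, smallest adjusted p = 0.57, for Ier3). The 2 arrays of a pair of PGE2 alone correlated with r from −0.588 to 0.312. With LPS and PGE2 at 2 h, an array of set 1 had 45.67% of probes at exactly 0. The absence of calls therefore does not show that the departures are equal. The departures share LPS arrays, so only their values are given. Ier3 was at −0.59 ± 0.52 with PGE2 over 8 values against −0.997 ± 0.46 with ISO over 9, and the difference over the 8 common values was −0.34 ± 0.05 (SE). Nfkbie was at −0.52 with PGE2, Tgm2 at −0.78, Phlda1 at −0.84 and Il10 at 0.42. For Timp1 the departure with PGE2 was 0.09 ± 0.49 against 0.54 ± 0.18 with ISO, a difference of 0.42 ± 0.17 (SE) that was not called (adjusted p = 0.787).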

How the data were processed

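The authors deposited log2 ratios of 2-colour oligonucleotide arrays, 1 column per array, whose image analysis, background correction and normalization were not given in the sources used here. That they are log2 was inferred from values that stop at 6.64 in either direction (log2 of 100, reached by 10 values). Ratios were turned to treated over medium by the dye labels, with Cy5 over Cy3 assumed, and the arrays of a dye-swap pair were averaged. Of 16281 probes, 13738 had 1 gene symbol in the platform annotation, 52 had several and 2491 were not listed. Symbols were updated through Entrez numbers for 13694, 478 probes at 0 on every array were left out, and the 13260 remaining probes were averaged into 10518 genes, of which 2452 had several probes.

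Departures were tested against 0 with limma 3.58.1 in R 4.3.3 (lmFit and eBayes; statmod 1.5.0 for correlated departures), with Benjamini-Hochberg adjustment over all genes and a threshold of 0.05. Time means, an F test between times and the difference from the PGE2 departure (8 values, since 1 h has 2 sets with PGE2) were fitted in the same way. Taking departures by set number treats the number as a block, as the definition of the departure requires, although the labels do not say what a number marks. The procedure was tested on simulated data, but no outcome of that is given here and no result above rests on it.

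Named were the 15 highest and 15 lowest called genes with the same sign in at least 8 of 9 values and values other than 0 on at least 27 of 54 arrays. At each time up to 5 called genes each way were named, with values other than 0 on at least 9 of 18 arrays. Up to 4 members per list with the largest departures could be named too. Cebpd, Odc1, Rnd2, Tnfrsf1b, Myc, Fbxw4 and Tfrc were named after their values were seen. The genes and the 20 lists were chosen with earlier results of these data known. Alternatives covered zeros as missing, a filter on zeros, single dye orientations, centring, single probes, fits without set numbers, and leaving out sets or times.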

Additional observations from a re-analysis of the deposited data

Results flagged for a closer look

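In 4 of the 30 genes with the highest and lowest called departures, 1 of the 9 departures stood apart from the others (gap to the nearest value, over the range of all 9, above the 95% critical value of Dixon's test). Chance alone gives this in about 1 in 20 groups of 9 independent values from 1 normal distribution. The values here span 3 times and the genes were picked by their departures, so that rate need not hold for them. Il10 had a departure of 1.60 in set 2 at 1 h, and the next highest was 0.70. Htr1b had 1.00 in set 3 at 2 h, against 0.63. P2ry12 had 1.26 in set 3 at 4 h, against 0.66. Id1 had −1.33 in set 1 at 1 h, against −0.81. In each of the 4 the value that stood apart had the sign of the gene's mean.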

How the results depend on the processing

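None of the 30 named genes changed its sign under any alternative fitted to gene averages, but they were picked for the same sign in at least 8 of 9 values. By single probes, 1 of the 2 probes of Il4i1 was at 0.05, against −1.22 for the other. The number of calls moved widely, and the cause was not tested. Against 90 calls over the 9 values, there were 139 among genes with values other than 0 on at least 27 arrays, 267 with treated RNA in Cy5 only (59 shared) and 215 with departures of a set allowed to correlate (correlation −0.09; chosen after seeing the data). Without the replicate block 9 were called from 27 pair means and 22 (15 shared) from all 44. Same-numbered samples deviated together with r from 0.028 to 0.66, above 0.1 in 25 of 27, and 25 of 27 samples correlated best with their own number, a hint from the data and not the design. Leaving out 1 set gave 0 to 1, and leaving out 1, 2 or 4 h gave 27, 0 and 24. At 1 h, against 1, the counts were 22 with zeros missing, 17 with the filter, 0 in both fits without the replicate block, 3 in Cy5, 6 after centring, and 0 to 1 without a set. At 2 h, against 0, they were 33, 32, 1 in both fits without the replicate block, 3, 18, and 1 by probes. At 4 h, against 16, they were 26, 28, 0 and 9 without the replicate block, 7 in Cy5, 2 in Cy3, and 0 to 1 without a set. The F test between times gave 1 with zeros missing, 1 with the filter and 0 to 1 without a set. The difference from PGE2 gave 0 in all settings run, and its fit to 27 pair means without the block was not run. The sign turned in genes not called over the 9 values: U90926 was −0.14 with Cy3 only, and Ifit2 ranged from −0.010 to 0.60 without a set. Ratios without intensities limit what can be said of weak probes.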
